A study of Mus musculus with 12 samples.

Results

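The genes described here govern whether a muscle cell leaves the cell cycle: 4 inhibitors of cyclin-dependent kinases (Cdkn1a, Cdkn1b, Cdkn1c and Cdkn2c), the 3 D-type cyclins (Ccnd1, Ccnd2 and Ccnd3) and the 3 pocket proteins (Rb1, Rbl1 and Rbl2). They are the rows of the deposited count table with these 10 gene names, out of 56941 genes. RNA came from C2C12, an established line of mouse myoblasts whose cells fuse to form myotubes. One group of 6 wells held a C2C12 line with the label ChR2::tdTomato, that is the light-gated cation channel channelrhodopsin-2 joined to a red fluorescent protein, and the other group of 6 wells held wild-type C2C12. Both were seeded on fibrin gel and differentiated for 6 days under IGF-1, aminocaproic acid and horse serum, and each well gave 1 RNA sequencing library. The labels name neither the promoter of the transgene nor a light stimulus. Each group is 1 line seeded into 6 wells, and the labels do not say whether wells came from separate passages or days. The p-values therefore measure the spread between these wells, and effects of the transgene and of a line's history cannot be told apart.

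As background, D-type cyclins bind the kinases Cdk4 and Cdk6 and phosphorylate the pocket proteins early in the cycle, which releases E2F transcription factors to switch on replication genes. Cdkn2c (p18) binds Cdk4 and Cdk6 alone, whereas Cdkn1a (p21), Cdkn1b (p27) and Cdkn1c (p57), the Cip/Kip inhibitors, act on cyclin-kinase complexes more widely. In differentiating muscle, p21 and p57 are known for holding myotube nuclei out of the cycle, cyclin D3 is the D-type cyclin that stays high in myotubes, and the retinoblastoma protein Rb1 is needed to keep the exit permanent.

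Wild-type wells 2 and 5 were shallow, with 1061068 and 2809669 estimated counts against 7388761 to 13628569 in the other 10 libraries, and the 7SL RNA, which has no poly(A) tail, took 24.8% and 8.37% of their counts against at most 0.0341% elsewhere. The 10 genes are therefore given over all 12 libraries and over the 10 libraries without these 2 wells. The protocols give ribosomal RNA depletion for low-input samples without naming them, so the labels do not say how these 2 libraries were made. All 10 markers of myogenic cells were present in every library, from Pax7 at 14.4 to 31.8 CPM (estimated counts scaled to the normalized library size) to Acta1 at 2282 to 5083 CPM. Their sum ran from 9612 to 11452 CPM in ChR2 wells and from 7468 to 13606 CPM in wild-type wells. Of these, Myf5 rose (log2 fold change, ChR2 over wild type, 0.80), and Myog (-0.84) and Des (-0.63) fell over 12 libraries. Without wild-type wells 2 and 5, neither Des (-0.29, edgeR adjusted p = 0.112) nor Myf5 was called. There Myog stayed lower (-0.67), and Mymk was called lower as well (-0.62, edgeR adjusted p = 0.00121). Over 12 libraries Mymk had missed the threshold (-0.45, edgeR adjusted p = 0.0531). The endothelial markers Pecam1, Cdh5 and Kdr and the immune markers Ptprc and Adgre1 never exceeded 3 counts, and the third immune marker, Cd68, stayed at or under 94 counts. Of 7 fibroblast markers 5 could be tested, of which Col3a1 rose (log2 fold change 0.86) and Pdpn fell (-0.67) in ChR2 wells, and the list's summed level ran from 2878 to 3490 CPM in ChR2 wells and from 948 to 3323 CPM in wild-type wells. Among them Thy1 stayed at or under 2 counts and Lum at or under 4, and the part of the myogenic and fibroblast genes in the results below was not tested.

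Of the 10 genes, Ccnd1, Ccnd2, Cdkn2c and Rbl1 rose in ChR2 wells and Cdkn1a and Rbl2 fell, while Cdkn1b, Cdkn1c, Ccnd3 and Rb1 did not pass the test. The test was edgeR's quasi-likelihood test over all genes with a Benjamini-Hochberg adjusted p under 0.05. These 6 calls among 10 stand beside 28.1% of 13168 genes called in either direction over 12 libraries. By direction, 14.0% of all genes were called higher and 14.1% lower, against 4 and 2 of the 10. Over 10 libraries the same 6 genes were called in the same directions, where 35.2% of 13484 genes were called, 18.9% higher and 16.3% lower. The median log2 fold change (ChR2 over wild type) of the 10 genes was 0.22, beside -0.02 for all genes tested, and 0.19 beside 0.00 over 10 libraries. Without ChR2 well 3, or without wild-type well 3, only 3 of the 10 were called over 12 libraries, because Ccnd1, Rbl1 and Rbl2 then missed the threshold. On the deposited TPM values, log2(TPM + 1), limma called 592 genes higher and 28 lower over 12 libraries, against 1838 and 1863 by edgeR on counts, and none of the 10 genes. On that scale the 12-library values of Ccnd1 (1.23), Ccnd2 (1.08), Rbl1 (0.88) and Cdkn2c (0.83) exceeded those from counts, and the median of all genes stood at 0.35. Cdkn1a moved from -0.62 to -0.16 and Rbl2 from -0.32 to 0.17. Over 10 libraries the TPM fit called Cdkn1a, Ccnd1 and Ccnd2. In bulk RNA, a change in the share of cells with a message and a change in the message per cell cannot be told apart.

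**Figure D1:**
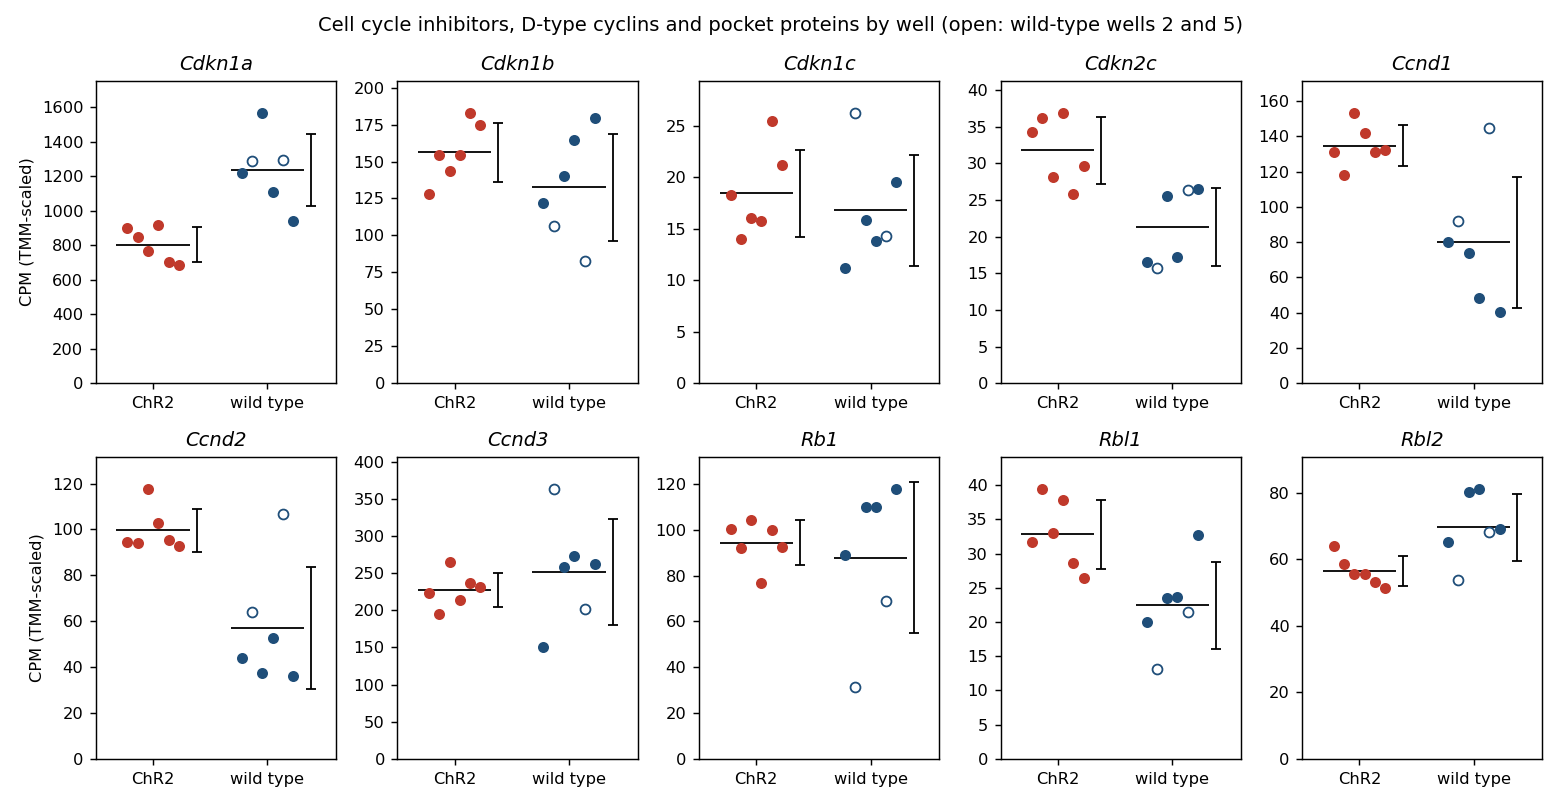
Level of each of the 10 genes in every well, in CPM on TMM-scaled library sizes, with 1 panel per gene and a linear axis from 0. Points are wells (ChR2 red, wild type blue, open for wild-type wells 2 and 5), lines are means and bars are SD over n = 6. The 2 groups of wells are fully apart for Cdkn1a alone, and the wild-type well inside the ChR2 range for both Ccnd1 and Ccnd2 is well 5.

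The cyclins that respond to growth signals, Ccnd1 and Ccnd2, were higher in the ChR2 line, whereas the cyclin of myotubes, Ccnd3, was not called. Ccnd1 (ENSMUSG00000070348) ran from 118 to 153 CPM in ChR2 wells, with a median of 132 CPM. In wild-type wells it ran from 40.5 to 145 CPM, with a median of 77.0 CPM. Wild-type wells 1 and 3 held 79.9 and 74.0 CPM and wells 4 and 6 held 48.5 and 40.5 CPM. All 4 therefore lay below every ChR2 well, as did well 2 at 91.7 CPM, and well 5 at 145 CPM lay among the ChR2 wells. Means were 135 ± 11.7 and 79.9 ± 37.1 CPM (SD, n = 6 each), a log2 fold change of 0.78 (SE 0.24, edgeR adjusted p = 0.0251). Over the 10 libraries the change was 1.17 (SE 0.17, edgeR adjusted p = 0.000312). The 12-library call was lost without ChR2 well 3 or without wild-type well 3, at edgeR adjusted p of 0.0531 and 0.0517.

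Ccnd2 (ENSMUSG00000000184) showed the same arrangement of wells. Its 4 deep wild-type wells lay closer together than those of Ccnd1 (42.7 ± 7.62 against 60.7 ± 19.2 CPM, SD, n = 4 each). ChR2 wells ran from 92.9 to 118 CPM with a median of 94.9 CPM, and wild-type wells from 36.3 to 107 CPM with a median of 48.5 CPM. The 4 deep wild-type wells held 44.1, 37.5, 52.9 and 36.3 CPM (wells 1, 3, 4 and 6), all below the lowest ChR2 well. Well 2 held 64.2 CPM, and well 5 again fell inside the ChR2 range, at 107 CPM. The log2 fold change was 0.84 (SE 0.22, edgeR adjusted p = 0.0128) over 12 libraries. It was 1.24 (SE 0.12, edgeR adjusted p = 1.14e-05) over 10, or 2.36-fold. Leaving out any single library kept this call in both sets of libraries.

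Ccnd3 (ENSMUSG00000034165) ran from 196 to 264 CPM in ChR2 wells, with a median of 227 CPM, and from 151 to 363 CPM in wild-type wells, with a median of 261 CPM. The lowest wild-type value was that of well 1 and the highest that of well 2, so the wild-type wells enclosed all 6 ChR2 wells. Its log2 fold change was -0.14, with a 95% interval from -0.50 to 0.23 (edgeR adjusted p = 0.583). Without wild-type wells 2 and 5 it was -0.04, with an interval from -0.35 to 0.28 (edgeR adjusted p = 0.867). Both intervals span a difference in either direction, and whether Ccnd3 differed from the other cyclins in its response was not tested.

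**Figure D2:**
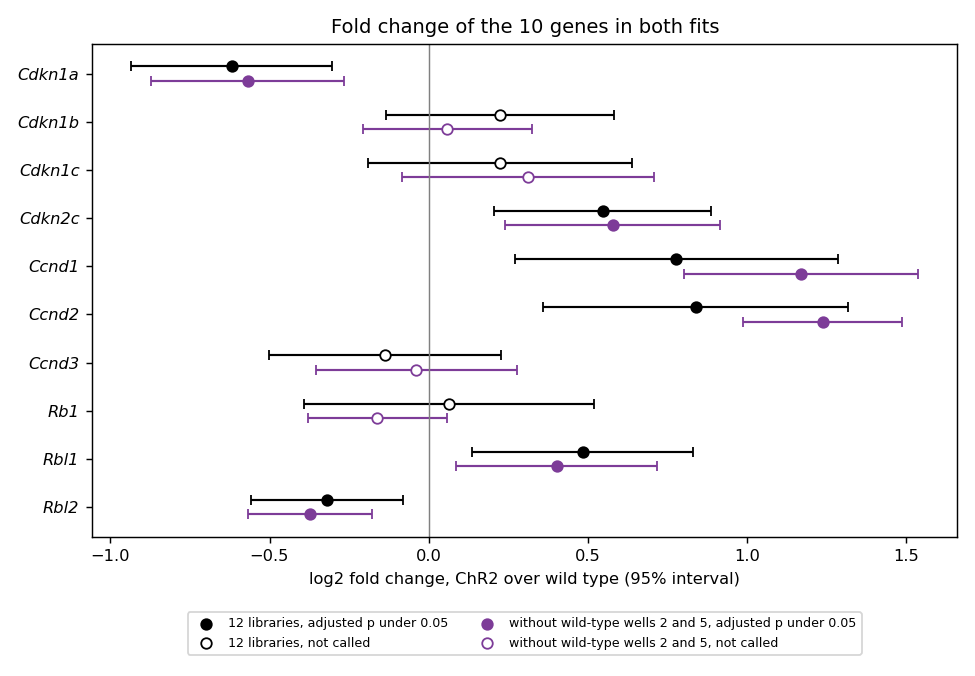
Log2 fold change, ChR2 over wild type, of each of the 10 genes with its 95% interval, over 12 libraries (black) and without wild-type wells 2 and 5 (purple), filled where the adjusted p was under 0.05. The same 6 genes are filled in both fits, and Ccnd1 and Ccnd2 moved from 0.78 and 0.84 to 1.17 and 1.24.

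Among the kinase inhibitors, p21 fell, p18 rose and neither p27 nor p57 was called. Cdkn1a (ENSMUSG00000023067) ran from 685 to 916 CPM in ChR2 wells, with a median of 808 CPM. It ran from 937 to 1563 CPM in wild-type wells, with a median of 1253 CPM, so every ChR2 well lay below every wild-type well. It was the only 1 of the 10 genes without overlap over 12 libraries, where 15.1% of all genes showed none. Wild-type wells 2 and 5, at 1286 and 1290 CPM, lay in the middle of their line for this gene. Means were 803 ± 99.6 and 1234 ± 209 CPM (SD, n = 6 each), a log2 fold change of -0.62 (SE 0.15, edgeR adjusted p = 0.0069). Over 10 libraries it was -0.57 (SE 0.14, edgeR adjusted p = 0.0068), and no single left-out library ended the call in either set. On the log2(TPM + 1) scale the 12-library change of Cdkn1a was -0.16, where the median of all genes was 0.35. Limma did not call it there (adjusted p = 0.852) but did over 10 libraries.

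Cdkn2c (ENSMUSG00000028551) ran from 25.8 to 36.8 CPM in ChR2 wells (median 31.9 CPM) and from 15.7 to 26.5 CPM in wild-type wells (median 21.4 CPM). The lines met only at their edges: wild-type wells 5 and 6, at 26.4 and 26.5 CPM, exceeded ChR2 well 5 at 25.8 CPM. The log2 fold change was 0.55 (SE 0.16, edgeR adjusted p = 0.0201), and 0.58 (SE 0.16, edgeR adjusted p = 0.0117) over 10 libraries. In the deposited TPM values, which are scaled by transcript length, the 10-library change was 0.18 on the log2(TPM + 1) scale and limma did not call it (adjusted p = 0.374). Over 12 libraries the TPM change was larger, 0.83, where the median of all genes was 0.35, and was not called either (limma adjusted p = 0.326).

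Cdkn1b (ENSMUSG00000003031), whose protein p27 is controlled largely by degradation, ran from 128 to 183 CPM in ChR2 wells (median 154 CPM) and from 82.8 to 179 CPM in wild-type wells (median 131 CPM). The 2 lowest wild-type values, 82.8 and 106 CPM, were those of wells 5 and 2. Its log2 fold change was 0.23 (95% interval -0.13 to 0.58, edgeR adjusted p = 0.338), and 0.06 (-0.21 to 0.32, edgeR adjusted p = 0.747) without these wells. Cdkn1c (ENSMUSG00000037664), the maternally expressed inhibitor p57, had the lowest mean TPM of the 4 inhibitors in ChR2 wells and the 4 deep wild-type wells. It ran from 14.0 to 25.5 CPM in ChR2 wells (median 17.2 CPM) and from 11.2 to 26.2 CPM in wild-type wells (median 15.1 CPM), with the highest value in wild-type well 2, which rested on 20 counts. Its log2 fold change was 0.22 (95% interval -0.19 to 0.64, edgeR adjusted p = 0.417), and 0.31 (-0.08 to 0.71, edgeR adjusted p = 0.203) over 10 libraries.

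The pocket proteins split: Rbl1 (p107) rose, Rbl2 (p130) fell and Rb1 was not called. As background, p107 belongs mainly to cycling cells and its gene is itself an E2F target, whereas p130 is the main E2F partner in resting cells, where it works within the DREAM repressor complex. The 250 bases before the annotated start are shown for these 2 genes and for the inhibitors that changed, so that matches to the motifs below can be located. Sequences are from RefSeq on GRCm38.p6, in transcript direction, and 6 of the 10 genes had an entry. Ccnd1 and Ccnd2, which rose, had none, and neither had Cdkn1c or Rb1, so the genes that rose and fell are not compared. Capitals mark matches on either strand to an E2F core (TTNNCGC), to the cell cycle homology region CHR (TTTGAA), to a CAGCTG E-box, a form bound by myogenic factors, or to a CCAAT box (CCAAT).
Rbl1, chr2:157204535-157204784, minus strand: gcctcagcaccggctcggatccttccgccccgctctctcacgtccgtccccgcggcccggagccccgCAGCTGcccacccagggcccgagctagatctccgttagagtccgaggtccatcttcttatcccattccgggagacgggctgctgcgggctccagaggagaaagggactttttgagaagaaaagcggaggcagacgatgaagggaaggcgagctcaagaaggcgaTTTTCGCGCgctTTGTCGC
Rbl2, chr8:91069807-91070056, plus strand: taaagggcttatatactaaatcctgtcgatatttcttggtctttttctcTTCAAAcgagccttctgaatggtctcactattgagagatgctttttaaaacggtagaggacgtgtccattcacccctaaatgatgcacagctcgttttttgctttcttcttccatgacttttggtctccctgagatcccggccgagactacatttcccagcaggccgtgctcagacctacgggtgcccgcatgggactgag
Cdkn2c, chr4:109666757-109667006, minus strand: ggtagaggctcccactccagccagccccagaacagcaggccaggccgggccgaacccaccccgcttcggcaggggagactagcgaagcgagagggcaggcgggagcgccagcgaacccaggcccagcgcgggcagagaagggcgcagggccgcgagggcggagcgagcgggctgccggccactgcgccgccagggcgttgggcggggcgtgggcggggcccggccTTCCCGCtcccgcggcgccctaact
Cdkn1a, chr17:29093519-29093768, plus strand: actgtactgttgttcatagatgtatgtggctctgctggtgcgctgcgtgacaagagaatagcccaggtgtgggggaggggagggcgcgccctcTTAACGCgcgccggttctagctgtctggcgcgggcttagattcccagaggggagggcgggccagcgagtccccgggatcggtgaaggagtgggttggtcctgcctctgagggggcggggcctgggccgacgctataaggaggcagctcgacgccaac
The Rbl1 window held 3 E2F core matches, which begin 19, 17 and 7 bases before the start, the first 2 of them overlapping, and a CAGCTG E-box 183 bases before it. The Rbl2 window held no E2F core match and 1 CHR match, 201 bases before the start. Cdkn2c had 1 E2F core match 25 bases before the start and Cdkn1a had 1 at 157 bases. Each of these inhibitors also had a second annotated start, with no match to any of the 4 motifs in its window, and counts per gene do not separate the starts. The window of Cdkn1b and 1 of the 2 windows of Ccnd3 held a CCAAT box, and none held an E2F core. Over all 32851 windows of this length, 17.0% held an E2F core, 16.0% a CHR, 33.8% a CCAAT box, and 4271 windows this E-box. A match describes the letters only.

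Rbl1 (ENSMUSG00000027641) ran from 26.4 to 39.4 CPM in ChR2 wells (median 32.3 CPM) and from 13.1 to 32.7 CPM in wild-type wells (median 22.5 CPM). Wild-type well 6, at 32.7 CPM, stood inside the ChR2 range, and the other wild-type wells were all at or below 23.7 CPM. The value of 13.1 CPM in wild-type well 2 rested on 10 counts, with an exact Poisson interval from 6.29 to 24.1 CPM that covers counting error only. The log2 fold change was 0.48 (SE 0.16, edgeR adjusted p = 0.0378), and 0.40 (SE 0.15, edgeR adjusted p = 0.0474) over 10 libraries. This was a fragile call: it was lost for 8 of the 12 libraries when each was left out in turn (ChR2 wells 1 to 4 and wild-type wells 1, 3, 4 and 5). Over the 10 libraries it was lost for 8 of 10, at edgeR adjusted p up to 0.156 without wild-type well 1, and kept only without ChR2 well 6 or wild-type well 6.

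Rbl2 (ENSMUSG00000031666) ran from 51.4 to 64.2 CPM in ChR2 wells (median 55.7 CPM) and from 53.7 to 81.2 CPM in wild-type wells (median 68.7 CPM). The wild-type value within the ChR2 range was that of well 2, at 53.7 CPM from 41 counts. Wells 1, 3, 4 and 6 held 65.4, 80.2, 81.2 and 69.2 CPM, all above the highest ChR2 well. The log2 fold change was -0.32 (SE 0.11, edgeR adjusted p = 0.0456) and was lost for 8 of 12 left-out libraries (ChR2 wells 2 to 6 and wild-type wells 3, 4 and 6). Over 10 libraries it was -0.37 (SE 0.09, edgeR adjusted p = 0.00606), and the call was kept whichever library was left out. On log2(TPM + 1) the sign turned to 0.17 over 12 libraries, where the median of all genes was 0.35. Over 10 libraries it was -0.39 on that scale and was not called by limma (adjusted p = 0.0614). Over those 10 libraries 4 of the 10 genes, Cdkn1a, Ccnd1, Ccnd2 and Rbl2, showed no overlap between the lines, where 24.5% of all genes showed none.

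Rb1 (ENSMUSG00000022105) ran from 76.7 to 104 CPM in ChR2 wells (median 96.3 CPM) and from 31.5 to 118 CPM in wild-type wells (median 99.5 CPM). Its lowest values in any library were those of wild-type wells 2 and 5, at 31.5 CPM from 24 counts and 68.9 CPM from 193 counts. With them the log2 fold change was 0.06 (95% interval -0.39 to 0.52, edgeR adjusted p = 0.861). Without them it was -0.16 (-0.38 to 0.06, edgeR adjusted p = 0.232), so its sign depended on wells 2 and 5.

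Levels of different genes are compared in TPM, which accounts for transcript length. In ChR2 wells Cdkn1a was the most abundant message of the 10, at 619 ± 95.7 TPM (SD, n = 6), followed by Ccnd3 (165 ± 28.7 TPM), Cdkn1b (85.2 ± 8.11 TPM) and Ccnd1 (48.2 ± 6.98 TPM). Below them came Rb1 (29.2 TPM, range 24.6 to 35.1 TPM), Cdkn2c (26.1 ± 3.98 TPM), Ccnd2 (21.1 ± 3.58 TPM), Cdkn1c (19.2 ± 4.34 TPM), Rbl2 (17.6 ± 3.54 TPM) and Rbl1 (11.05 ± 2.04 TPM). The first 5 ranks were separated by ranges of wells that did not overlap, while each pair of neighbours from Rb1 down to Rbl1 overlapped. In the 4 deep wild-type wells the order opened alike with Cdkn1a (968 ± 255 TPM, n = 4), Ccnd3 (181 ± 43.8 TPM) and Cdkn1b (89.7 ± 10.5 TPM). There Ccnd1, at 23.1 ± 8.38 TPM, ranked behind Rb1 (34.1 ± 3.24 TPM) and Rbl2 (23.2 ± 2.52 TPM), and Ccnd2, at 9.51 ± 1.70 TPM, ranked ninth. There Rb1 lay apart from its neighbours in that order, Rbl2, Ccnd1, Cdkn2c and Cdkn1c overlapped in turn, and Ccnd2 and Rbl1 lay below them and overlapped each other. TPM levels of wild-type wells 2 and 5 are not placed in this order, since 7SL RNA took 72.0% and 50.8% of their TPM. That share alone leaves ratios within a library unchanged, but TPM against CPM also differed by gene in these wells. In well 2, Cdkn1c held 26.2 CPM and 10.2 TPM, and Cdkn2c held 15.7 CPM and 1.84 TPM. In well 1 Cdkn1c held 11.2 CPM and 12.5 TPM, and Cdkn2c held 16.6 CPM and 19.8 TPM. Shares and ratios of wells 2 and 5 carry this limit, whose cause was not tested.

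The message mix within families is given as a description with no test, and the wells of the lines overlapped for every share but that of Rbl1 among pocket proteins (16.0% to 22.1% in ChR2 wells, 11.5% to 15.8% in wild-type wells). Ccnd3 made up 70.3 ± 1.44% of the D-type cyclin TPM in ChR2 wells (range 68.3% to 71.8%). In wild-type wells its share was 74.1% in well 1, 89.7% in well 2, 85.1% in well 3, 87.4% in well 4, 62.4% in well 5 and 89.5% in well 6. Only well 5 lay below the ChR2 wells, and the wild-type wells were far more spread. Both ends of the wild-type range were the shallow wells 5 and 2, and the 4 deep wells ran from 74.1% to 89.5%. In well 2 Ccnd1 and Ccnd2 rested on 70 and 49 counts. Well 5 held 145 CPM and 36.7 TPM of Ccnd1, and 107 CPM and 26.3 TPM of Ccnd2. Well 1 held 79.9 CPM and 31.1 TPM of Ccnd1, and 44.1 CPM and 10.4 TPM of Ccnd2. Ccnd1 took 20.7 ± 0.89% in ChR2 wells and from 6.83% to 21.9% in wild-type wells, highest in wells 5 and 1. For the pocket proteins, the ratio of Rbl1 to Rbl2 was 0.64 ± 0.10 in ChR2 wells (0.49 to 0.72) and 0.35 ± 0.10 in wild-type wells (0.21 to 0.52). Wild-type well 6, at 0.52, was the one that entered the ChR2 range. The ratio of Cdkn1a to Ccnd1, an exit gene against an entry gene, ran from 10.8 to 15.4 in ChR2 wells and from 16.0 to 49.0 in wild-type wells, without overlap. Its lowest wild-type value was that of well 5, and the 4 deep wild-type wells lay between 32.2 and 49.0. This ratio sets a gene called lower over a gene called higher, so its separation adds nothing to those calls. The Rbl1 share and the Rbl1 to Rbl2 ratio likewise set Rbl1, called higher, against Rbl2, called lower, and add nothing to those calls. The ranges of the lines overlapped for the ratios of Cdkn1a to Cdkn1b, Ccnd1 to Ccnd3 and Ccnd2 to Ccnd3. Among Cip/Kip messages, Cdkn1a made up 85.3 ± 3.22% in ChR2 and 90.7 ± 3.15% in wild-type wells, and these ranges overlapped.

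**Figure D3:**
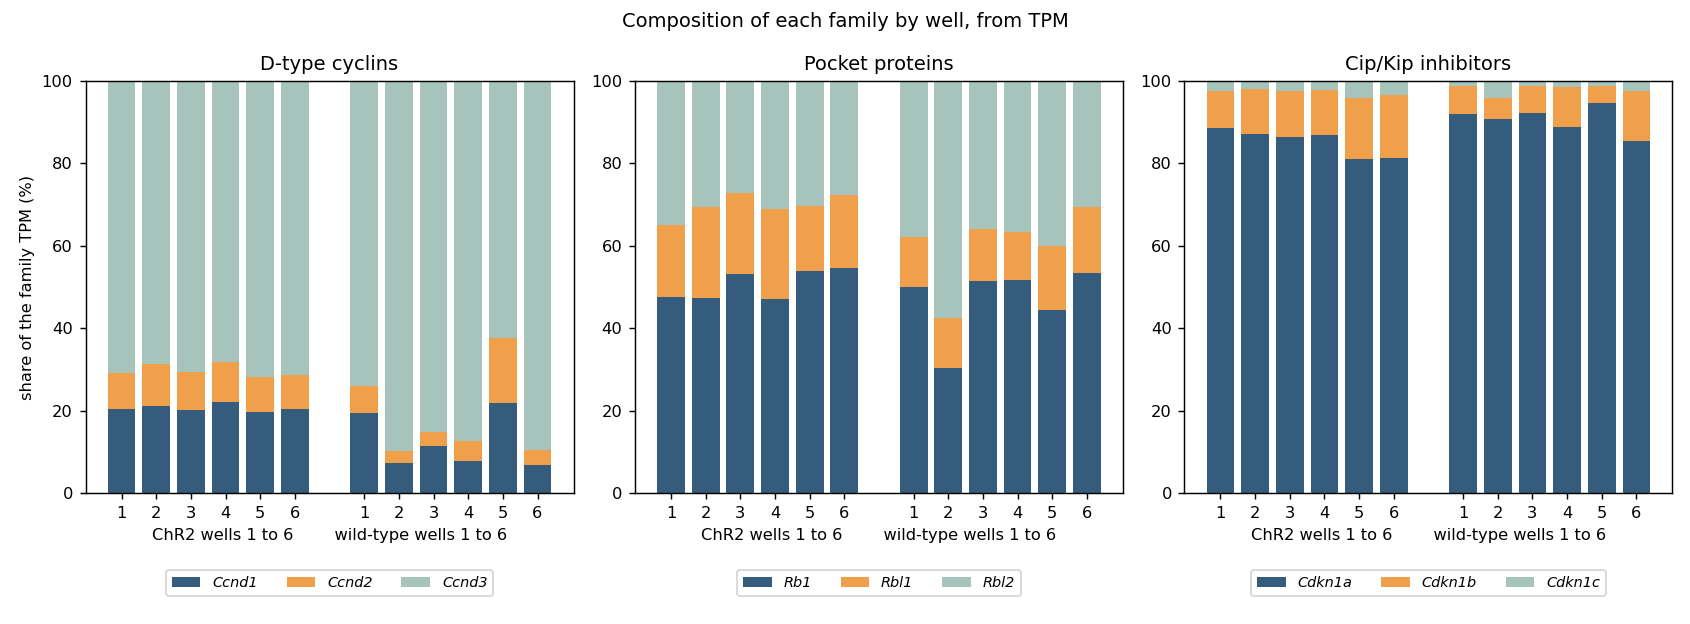
Share of each gene in the summed TPM of its family (percent, bars stacked to 100%), with 1 bar per well, for the D-type cyclins, the pocket proteins and the Cip/Kip inhibitors. Ccnd3 takes 68.3% to 71.8% of D-type cyclin TPM in ChR2 wells and 62.4% to 89.7% in wild-type wells, where both ends are the shallow wells 5 and 2.

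The partners of these genes were followed through lists chosen with earlier results of these data known, and each count is to be read beside the 28.1% of all genes called over 12 libraries (14.0% higher, 14.1% lower) and the 35.2% called over 10. Of 9 G1 kinases and partner cyclins, 1 rose and 1 fell over 12 libraries, Cdk2 (log2 fold change 0.33), the kinase of cyclins E and A, and Cdk7 (-0.62), the kinase that activates other cyclin-dependent kinases. The median of that list was 0.08, and its 2 calls among 9 were no larger a share than that over all genes. The kinases of the D-type cyclins were called only without wild-type wells 2 and 5. Cdk4 had 0.22 over 12 libraries (edgeR adjusted p = 0.216) and 0.43 over 10 (edgeR adjusted p = 0.00137). Cdk6 had 0.50 (edgeR adjusted p = 0.0854) and 0.81 (edgeR adjusted p = 0.000387). As with Ccnd1 and Ccnd2, wild-type well 5 held the highest level of its line for both, 199 CPM of Cdk4 and 78.9 CPM of Cdk6. Wild-type well 2 held 194 CPM of Cdk4 and 41.9 CPM of Cdk6. Over 10 libraries, without both wells, Cdk2, Cdk4 and Cdk6 rose and Cdk7 fell, with Cdk2 and Cdk7 called as over 12. Of 4 other inhibitors 2 could be tested. Cdkn3, a phosphatase that acts on kinases of the cycle, rose (1.21) and Cdkn2d (p19) was not called (0.54, edgeR adjusted p = 0.0855). Cdkn2a and Cdkn2b had no count in any of the 12 libraries, where a floor of 3 counts allows up to 0.412 CPM in the 10 deep libraries and up to 3.93 CPM in wild-type well 2.

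E2F factors moved both ways, 2 higher and 3 lower of 10, with a median log2 fold change of 0.01, beside 14.0% of all genes called higher and 14.1% lower. The activator E2f1 stood at 28.9 ± 3.08 against 17.9 ± 5.45 CPM (SD, n = 6 each), a log2 fold change of 0.79 (edgeR adjusted p = 0.00297), and the repressor E2f7 at 18.4 ± 4.09 against 8.48 ± 3.22 CPM (1.08). In the opposite direction E2f2 ran from 12.9 to 24.6 CPM in ChR2 wells and from 36.5 to 94.9 CPM in wild-type wells, without overlap. Its log2 fold change was -1.66 (SE 0.23, edgeR adjusted p = 0.000206), so 2 activators of the same subfamily differed in sign. The repressor E2f6 (-0.68) and E2f4 (-0.51), the usual E2F partner of p130 and p107, fell too. Of 7 genes of the MuvB core and its activators, which join p130 or B-Myb and FoxM1 on cell cycle promoters, 2 rose, Foxm1 (1.65) and Lin9 (0.74), and 1 fell, Lin37 (-0.64). The median over this list was -0.04, and over 10 libraries Mybl2 rose as well (0.88).

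Genes that act after the restriction point were mostly higher. Of 20 replication genes under E2F control 13 rose and 0 fell, with a median log2 fold change of 0.63, led by the thymidine kinase Tk1 (1.25) and the DNA methylation cofactor Uhrf1 (1.18). All 20 late cell cycle genes rose, with a median of 1.62, led by Ube2c (2.02) and Ccnb2 (1.89). Over 10 libraries 14 and 20 rose, with medians of 0.70 and 1.59. The proteolysis list held 11 tested genes, of which 1 rose and 3 fell (median -0.34), beside 14.0% and 14.1% of all genes. Over 10 libraries 3 rose and 4 fell, where Cks2 (0.56), Fbxo4 (0.33) and Cul1 (-0.30) were added. That called share was larger than the 35.2% over all genes, a difference that was not tested. Cks1b, which the p27 ubiquitin ligase needs as a cofactor, stood at 45.3 ± 6.27 against 16.6 ± 8.34 CPM (1.32). Skp1 (-0.52), the deubiquitinase Usp19 (-0.96) and Ambra1 (-0.37), which directs D-type cyclins to degradation, fell.

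Since p21 is a target of p53 and of myogenic factors, other genes of both kinds were counted. Of 19 p53 targets 1 rose and 6 fell, with a median log2 fold change of -0.32, or 1 and 7 with a median of -0.12 over 10 libraries. Of all genes, 14.0% were called higher and 14.1% lower over 12 libraries, and 18.9% and 16.3% over 10. The list held a larger share of falls and a smaller share of rises than all genes, a difference that was not tested. Trp53inp1 stood at 33.0 ± 3.69 against 72.7 ± 21.6 CPM (-1.15), and the exonuclease gene Aen at 68.9 ± 6.59 against 115 ± 20.4 CPM (-0.74), while Sesn2, which also responds to amino acid shortage, rose (0.64). Of 8 tested myogenic factors 1 rose, Myf5 (0.80), and 2 fell, Myog (-0.84) and Mef2d (-0.59), with a median of -0.16. Beside them stand 14.0% of all genes called higher and 14.1% lower. Over 10 libraries Myf5 missed the threshold (0.60, edgeR adjusted p = 0.0663). There 0 rose and 3 fell, Mef2a (-0.42) with them, beside 18.9% and 16.3% of all genes. Myod1, which drives Cdkn1a in differentiating myoblasts, was not called (-0.18, edgeR adjusted p = 0.297). Around Cdkn1c, whose imprinted domain lies next to that of Igf2 and H19, 7 of 12 neighbours could be tested. None of them rose and 4 fell (median -0.66), which were Kcnq1ot1 (-1.15), the noncoding RNA that silences Cdkn1c on the paternal copy, Tssc4 (-0.92), Igf2 (-0.68) and H19 (-0.66). Kcnq1ot1 was no longer called without wild-type wells 2 and 5 (-0.43, edgeR adjusted p = 0.20), where Tssc4 and Igf2 were the 2 that fell.

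**Figure D4:**
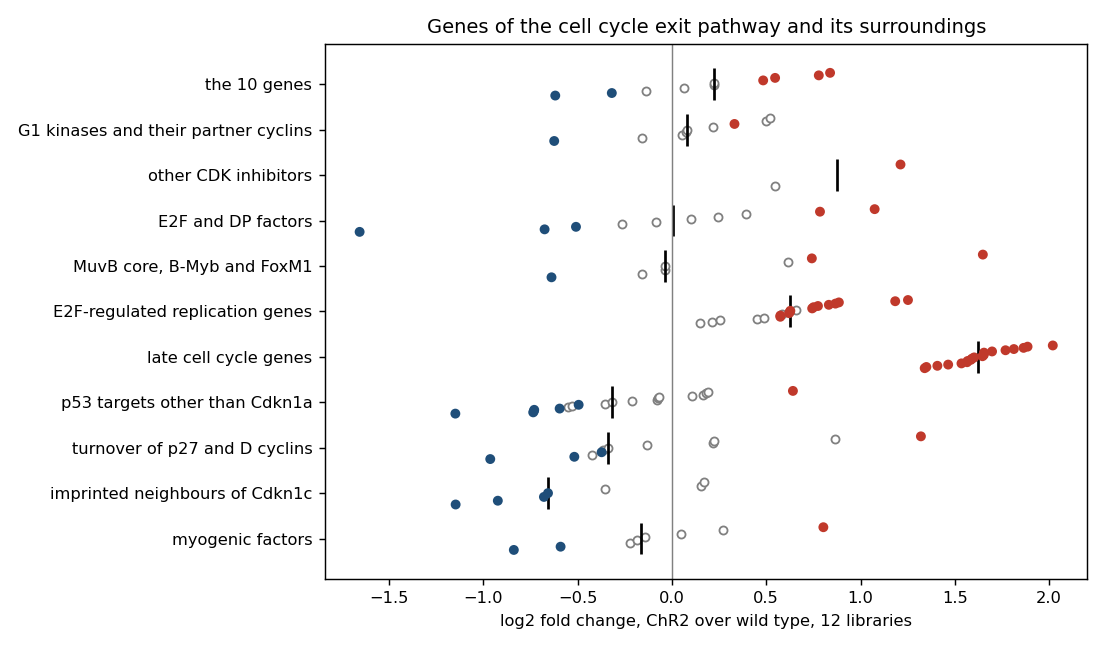
Log2 fold change, ChR2 over wild type over 12 libraries, of every tested gene of the 10 lists and of the 10 genes described (top row). Each point is a gene, red where called higher, blue where called lower and open where not called, and black bars are medians. The late cell cycle genes lie furthest to the right, at a median of 1.62.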

How the data were processed

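RNA from 12 wells was sequenced. Per the labels' protocols, libraries were made from poly(A) RNA, while low-input samples, not named, were made by ribosomal RNA depletion. The authors deposited estimated counts per gene and TPM. Tools named in the submitters' processing notes, with no role, were Salmon, STAR, BWA (0.7.12-r1039) and bedtools (2.25.0), and the builds named were GRCm39, mm10 and hg19. Groups and replicate numbers came from sample titles. Per-sample columns left unused numbered 0.

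Estimated counts were rounded, filtered by edgeR's filterByExpr (minimum count 10), scaled by TMM and tested across all genes by edgeR 4.0.16 (quasi-likelihood test, robust dispersion, R 4.3.3). CPM are on TMM-scaled sizes of the 12-library fit. SE is the log2 fold change divided by the root of the F statistic. Alternatives used DESeq2 1.42.0 and limma 3.58.1. The fit was tested on simulated data. No same-line pair agreed within sampling noise (chi-square per degree of freedom at least 5.09).

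The members and lists were chosen with earlier results of these data known. Genes named were the members, Cdk4, Cdk6, E2f1, Myod1 and Myog, and per list up to 2 called rises and 2 falls of at least 1 CPM. Other genes were named after their values were seen (E2f4, Ambra1, Cks2, Fbxo4, Cul1, Mybl2, Mef2a, Igf2, H19, Cdkn2a, Cdkn2b, Cdkn2d and the markers). Amplified reads without molecular identifiers make depth a bound on counting error only.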

Additional observations from a re-analysis of the deposited data

Results flagged for a closer look

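Each gene named by rule was examined for a well lying far from the others of its line by Dixon's test, also among the 4 deep wild-type wells. Of 114 such groups 7 were marked, and chance marks about 1 in 20. Ccnd3 was marked in wild-type well 1, at 151 CPM, where the nearest of wells 3, 4 and 6 held 259 CPM. Cdk4 in wild-type well 4 stood at 127 CPM, next to 138 CPM among the same 4 wells. In wild-type well 5, Cdk6 stood at 78.9 CPM (nearest 43.6 CPM) and Uhrf1 at 32.5 CPM (nearest 23.0 CPM). In wild-type well 6, Tk1 stood at 33.0 CPM (nearest 17.5 CPM) and Ccnb2 at 23.0 CPM (nearest 10.3 CPM), and the same well held the highest Rbl1 of its line. Cks1b in ChR2 well 4 stood at 57.3 CPM, next to 46.7 CPM.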

How the results depend on the processing

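Genes called numbered 2822 to 4115 over 12 libraries and 3861 to 4975 over 10 when each library was left out, and members called 3 to 6 and 5 to 6. Over 12 libraries, limma on log2(TPM + 1), log2(TPM + 0.1) and log2(TPM + 1) without a filter called 620 genes (592 higher, 28 lower, against 1838 and 1863), 271 (254 and 17) and 425 (402 and 23), and 0 members each. In these, Rbl2 turned to 0.17, 0.21 and 0.17 with adjusted p of 0.83, 0.81 and 0.84. The median of all genes stood at 0.35, 0.43 and 0.08 there, and at -0.18 with DESeq2's Wald test, against -0.02. In TPM, 7SL RNA filled 72.0% and 50.8% of wild-type wells 2 and 5; the cause was not tested. Over 10 libraries these settings each called 3 members (Cdkn1a, Ccnd1 and Ccnd2), and the unfiltered one 2430 genes.

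Rbl2 over 12 libraries also missed the threshold with DESeq2 size factors, upper-quartile scaling and no filter (adjusted p up to 0.15), and Rbl1 with no filter (0.061). Replicate numbers are shared between the lines but did not pair the wells: same-numbered deviations correlated from -0.14 to 0.10, and 1 of 6 ChR2 wells matched its own number best. With the replicate block, 2641 genes and 3 members were called over 12 libraries and 3008 genes and 3 members over 10, and Cdkn2c (adjusted p = 0.070 and 0.058), Rbl1 (0.090 and 0.15) and Rbl2 (0.13 and 0.056) missed the threshold in both. Depth limits Rbl1, Cdkn2c and Cdkn1c in wild-type well 2, with 10 to 20 counts.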
